A study of Mus musculus with 15 samples.

Results

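The lysosomal enzymes and membrane proteins are a list of 39 genes, of 30971 genes with a symbol on the array, and were chosen by gene name. They were measured in microglia sorted from 15 male mice on Affymetrix Mouse Gene 2.0 ST arrays, in which all probes of a transcript are summarised to 1 log2 signal per transcript cluster. All 39 were found, 38 of them with 1 transcript cluster. For Atp6v1b2, which has 2, the cluster with the higher mean signal over the 15 arrays was used. A difference of 1 on this scale is a 2-fold difference of signal, and levels were not compared between genes, because each has its own probes.

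All mice, controls included, carried floxed alleles of Tgfbr2, the ligand-binding receptor for TGFβ, with loxP sites around exons 2 and 3, and the R26-yfp reporter, on a C57BL/6 background. Cre/+ TAM mice (n = 6) carried the tamoxifen-inducible recombinase Cx3cr1CreERT2 and received tamoxifen. The wt TAM mice (n = 6, also written +/+ TAM) lacked Cre and received tamoxifen, and Cre/+ OIL mice (n = 3) carried Cre and received corn oil without tamoxifen. Tamoxifen, at 8 mg, was injected on 2 occasions at an age of 6 to 8 weeks, and cells were sorted 4 weeks later. The CreERT2 allele sits in Cx3cr1, a gene of microglia that other brain macrophages and monocytes also use. The labels name sorting of CD11b+/CD45low cells for every mouse. The study's results section names YFP+/CD45low cells for the recombined mice, CD11b+/CD45low cells for Cre-free mice and no gate for Cre/+ OIL. Gate and group therefore cannot be told apart.

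Lysosomes are acidic, membrane-bound compartments in which proteins, sugars and lipids from phagocytosis, endocytosis and autophagy are broken down. A proton pump, the V-ATPase, acidifies them, hydrolases such as the cathepsins act at low pH, and heavily glycosylated membrane proteins such as LAMP1 line the inner face. Microglia, the phagocytes of the brain, are rich in them, and many lysosomal genes share a regulatory motif, the CLEAR element, to which TFEB, TFE3 and MITF can bind.

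The promoters of the members were read to show this shared element, since it is a feature the choice of genes did not use. Of the 39 genes, 33 had a promoter in the RefSeq table for GRCm38.p6, which gives 250 bases before and 50 after each annotated start. The 6-letter E-box CACGTG occurred in 12 of these 33 genes, or 36.4%, against 8.09% of all 27025 genes with a promoter there. The 8-letter form TCACGTGA occurred in 6 of 33, or 18.2%, against 1.12% of all genes. It contains the E-box, and both motifs read the same on either strand. Among 58 further lysosomal genes with a promoter, 22.4% held the E-box and 12.1% the longer form. The 4 promoters below are those with the longer form and the smallest p-values in the comparison of Cre/+ TAM with wt TAM. Each is shown from 250 bases before the start to the last base before it, with each E-box in capitals, so that its place before the start can be read.
Atp6v1a: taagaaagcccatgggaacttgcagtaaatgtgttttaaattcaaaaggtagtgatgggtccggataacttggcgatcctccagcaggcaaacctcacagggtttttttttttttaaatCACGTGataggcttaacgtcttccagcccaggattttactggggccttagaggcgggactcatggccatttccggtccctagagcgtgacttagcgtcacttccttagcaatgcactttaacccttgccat
Ctsa: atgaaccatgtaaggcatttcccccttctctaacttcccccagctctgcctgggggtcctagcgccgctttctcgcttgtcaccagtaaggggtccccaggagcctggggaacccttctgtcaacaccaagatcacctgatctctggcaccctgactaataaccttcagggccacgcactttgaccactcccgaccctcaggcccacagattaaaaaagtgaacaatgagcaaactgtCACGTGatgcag
Ctsd: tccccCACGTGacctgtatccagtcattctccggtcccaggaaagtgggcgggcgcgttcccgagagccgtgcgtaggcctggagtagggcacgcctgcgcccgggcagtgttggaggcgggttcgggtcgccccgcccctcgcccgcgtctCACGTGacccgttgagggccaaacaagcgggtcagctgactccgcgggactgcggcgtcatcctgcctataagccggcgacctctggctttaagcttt
Cln3: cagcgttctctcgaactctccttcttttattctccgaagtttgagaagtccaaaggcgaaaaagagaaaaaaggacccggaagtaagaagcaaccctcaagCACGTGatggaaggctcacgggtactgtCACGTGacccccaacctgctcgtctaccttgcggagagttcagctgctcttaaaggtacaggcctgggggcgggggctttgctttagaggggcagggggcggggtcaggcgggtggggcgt
These are GRCm38.p6 chr16:44139260-44139509 on the minus strand (Atp6v1a, a subunit of the proton pump), chr2:164833523-164833772 on the plus strand (Ctsa, a serine carboxypeptidase), chr7:142387828-142388077 on the minus strand (Ctsd, an aspartic protease) and chr7:126583237-126583486 on the minus strand (Cln3, a lysosomal membrane protein). The E-box of Atp6v1a began 131 bases before the start. Ctsa, Ctsd and Cln3 each held 2 copies, and those of Ctsa began 12 bases before the start and 5 bases after it, the latter beyond the stretch shown. A match is a description of letters and not of binding.

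**Figure D1:**
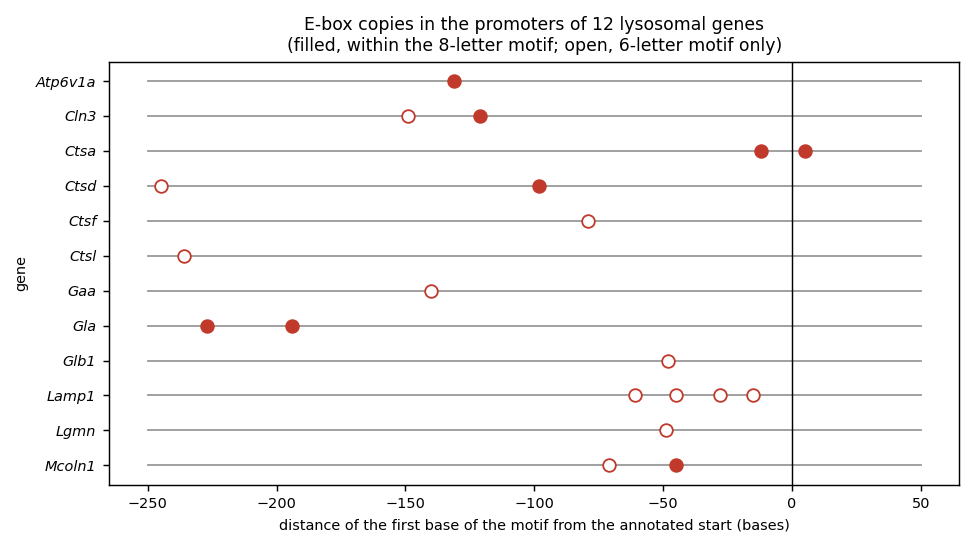
Positions of the E-box in the promoters of the 12 lysosomal genes that held it, from 250 bases before to 50 bases after the annotated start (horizontal axis, bases; 0 is the start). Filled circles lie within the 8-letter form and open circles do not. Lamp1 holds 4 copies, all within 61 bases before the start.

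The members with and without the motif had differences of the same order between Cre/+ TAM and wt TAM. The median log2 difference was 0.12 over the 12 genes with an E-box and 0.14 over the 21 genes with a promoter and none.

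Facts of the whole series bear on these values as follows. Across transcript clusters the arrays correlated with each other at 0.960 to 0.988, and array medians lay between 4.35 and 4.55. The Tgfbr2 signal was 8.14 ± 0.17 (SD, n = 6) in Cre/+ TAM, 8.12 ± 0.12 (n = 6) in wt TAM and 8.25 ± 0.29 (n = 3) in Cre/+ OIL. The signal of the whole transcript checks nothing about a deletion of exons 2 and 3 that leaves the other exons in place. The mean over 14 microglial markers ranged from 9.63 to 10.14 in Cre/+ TAM, from 9.68 to 10.16 in wt TAM and from 9.89 to 10.17 in Cre/+ OIL. Animal numbers in the labels fall in a lower range (2 Cre/+ TAM, 3 wt TAM and all 3 Cre/+ OIL mice) and an upper range (4 Cre/+ TAM and 3 wt TAM mice), with a gap between them. One Cre/+ TAM array, that of mouse 1, stood apart in markers of border-associated macrophages, with a mean signal of 6.89 over 13 markers against 4.71 to 5.41 in the other 5 Cre/+ TAM mice. Neutrophil markers (7 genes) had a mean of 6.61 in wt TAM mouse 2 and 7.22 in Cre/+ OIL mouse 3, and of 4.13 to 4.97 in the other 13 mice.

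Comparing Cre/+ TAM with wt TAM asks how recombination of Tgfbr2 goes together with lysosomal gene expression in mice that all received tamoxifen. These groups also differ in the Cre allele in Cx3cr1, so that recombination and the Cre allele cannot be told apart here. The study added controls such as Cre/+ OIL because of Cx3cr1 haploinsufficiency in Cre carriers and of tamoxifen itself. The mean signal was higher in Cre/+ TAM for 39 of 39 lysosomal genes, by small amounts, and none passed the test after adjustment over all clusters. After quantile normalization 36 of 39 were higher, with Psap, Mitf and Lamp2 at differences of -0.02, -0.02 and -0.01. The median log2 difference over the members was 0.15, against -0.02 over all genes, and the largest was 0.43 for Lipa. Differences of about 0.3 to 0.4 were found for the cathepsins Ctsh, Ctsc and Ctsb, the glycosidases Gusb and Hexa, the lipase Lipa, the membrane protein Cd68 and the pump subunit Atp6v1a.

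With limma's test and Benjamini-Hochberg adjustment over 32471 clusters, 0 of 39 members were called at an adjusted p under 0.05, against 0.0246% of all clusters (8 of 32471). The smallest adjusted p was 0.600, for Ctsh. At an unadjusted p under 0.05, 10 of 39 members (25.6%) were higher and 0 lower, against 2.92% of all clusters higher and 2.91% lower. The methods' unpaired test gave 12 of 39 at an unadjusted p under 0.05 and 0 after adjustment. With that test 907 of 32471 clusters were higher at the unadjusted threshold. Clusters with high signals were more often higher in Cre/+ TAM. Of 1481 clusters with a mean signal above 8, 63.4% had a positive difference and 9.25% were higher at an unadjusted p under 0.05, while over all clusters 44.8% were positive. Of the members, 24 lay above that signal, 24 of these 24 were positive and 8 (33.3%) were higher at an unadjusted p under 0.05.

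**Figure D2:**
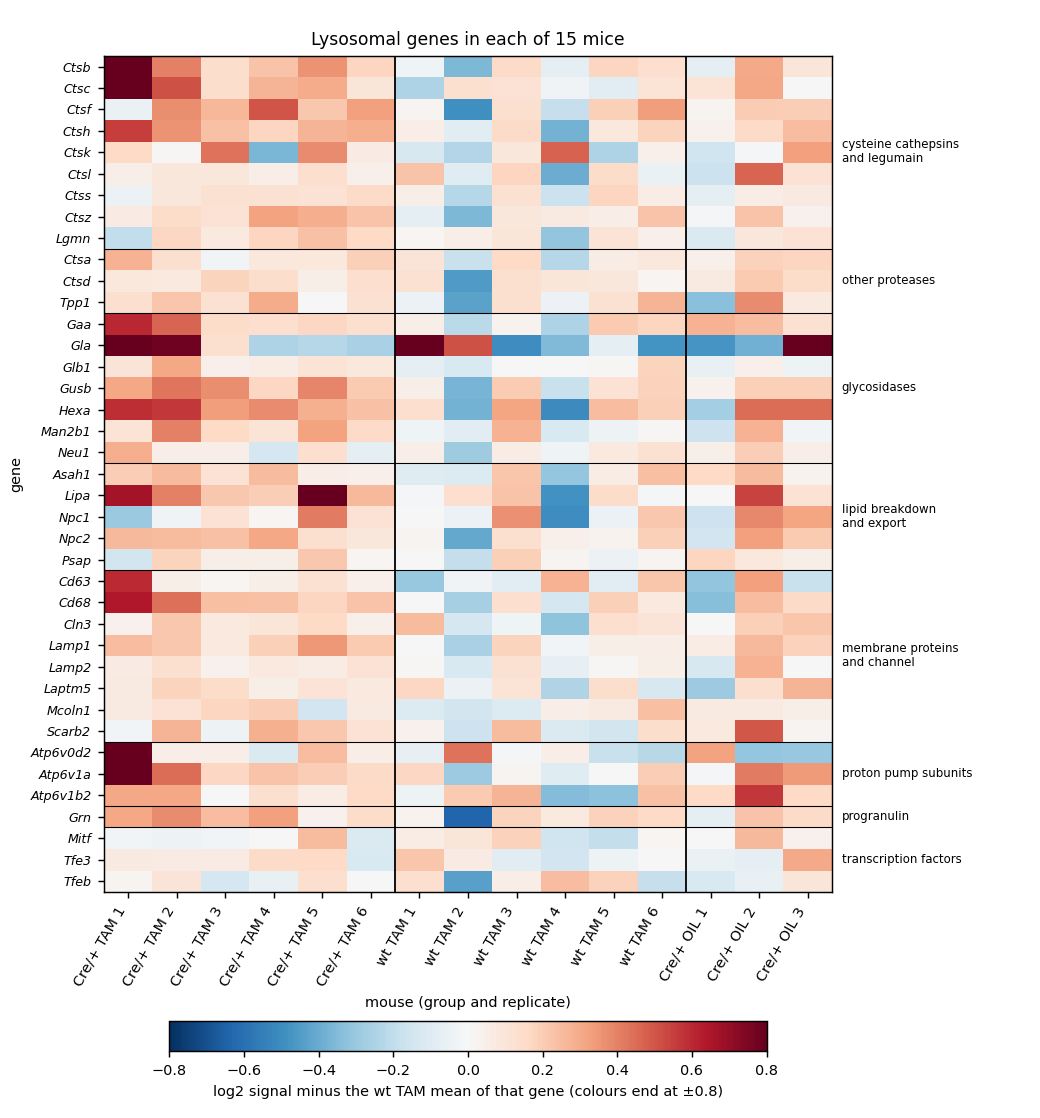
Each row is 1 of the 39 lysosomal genes, grouped by role, and each column 1 of the 15 mice. The colour is the log2 signal minus the wt TAM mean of that gene, with colours ending at ±0.8. Reds prevail in the 6 Cre/+ TAM mice, and wt TAM mice 2 and 4 have the most blue fields.

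The groups overlapped for each gene. In 0 of 39 members did all 6 Cre/+ TAM mice lie above all 6 wt TAM mice, which 0.317% of all clusters did. For 6 members (Ctsb, Ctsc, Ctsh, Gusb, Lamp1 and Cd68) 5 of the 6 Cre/+ TAM mice lay above the highest wt TAM mouse. For 23 members all 6 lay above the wt TAM mean. No share over all clusters is given for these counts, so they are not read as a result about the members. Within groups the members varied more in wt TAM, with a median SD of 0.20, than in Cre/+ TAM, with 0.13, and the SD was larger in wt TAM for 27 of 39. The lowest of the 15 values was in wt TAM mouse 2 for 16 members and in wt TAM mouse 4 for 12. The median difference of the members to the wt TAM mean was -0.16 in wt TAM mouse 2 and -0.12 in mouse 4, and 0.02 to 0.13 in the other 4 wt TAM mice. It was 0.12 to 0.21 in the 6 Cre/+ TAM mice, and the ranges of the groups overlapped. The mean of the microglial markers was also low in wt TAM mice 2 and 4 (9.68 and 9.86, against 10.03 to 10.16 in the other 4). It was lowest of all in Cre/+ TAM mouse 1 (9.63), in which the median difference of the members was 0.16 and 32 of 39 lay above the wt TAM mean. The part of these markers in the result was not tested. When 1 mouse was left out, the number of members higher at an unadjusted p under 0.05 was 7 to 13, the lowest without wt TAM mouse 2. Without that mouse 819 of 32471 clusters were higher at that threshold.

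**Figure D3:**
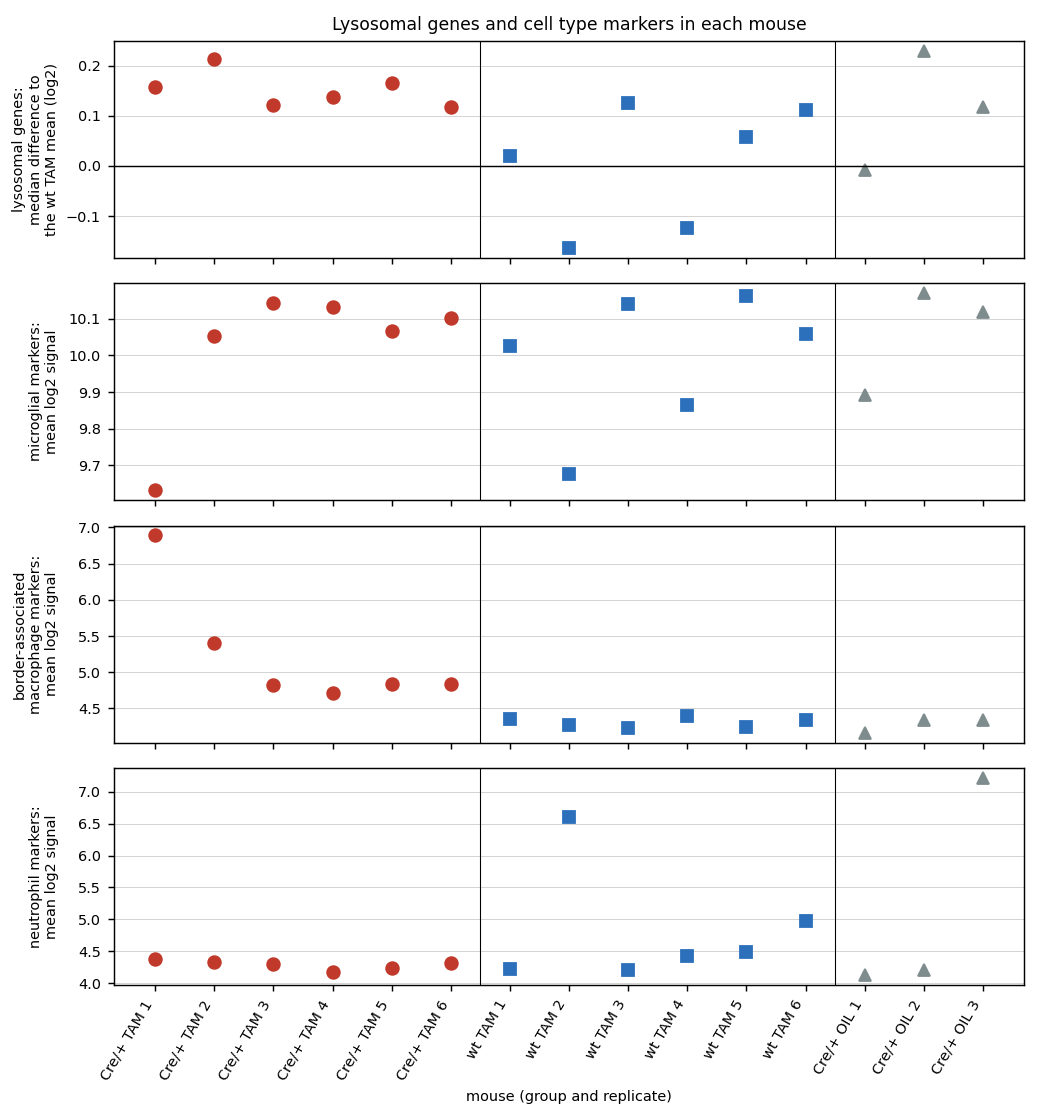
Each point is 1 mouse (circles, Cre/+ TAM; squares, wt TAM; triangles, Cre/+ OIL). From top to bottom, the vertical axes give the median difference of the 39 lysosomal genes to the wt TAM mean (log2) and the mean log2 signals of 14 microglial, 13 border-associated macrophage and 7 neutrophil markers. The wt TAM mice 2 and 4 and Cre/+ OIL mouse 1 are low for both the lysosomal genes and the microglial markers. Cre/+ TAM mouse 1 has the lowest microglial marker mean (9.63) beside a lysosomal median of 0.16, and reaches 6.89 in the border-associated macrophage markers.

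Cysteine cathepsins are papain-like proteases of the lysosome, and legumain, encoded by Lgmn, is a protease that cleaves after asparagine. All 9 were higher in Cre/+ TAM, with a median log2 difference of 0.20 (0.08 for Ctsl to 0.37 for Ctsb), and 3 had an unadjusted p under 0.05. Ctsh, an aminopeptidase among the cathepsins (transcript cluster at chr9:90054152-90076095), had signals of 9.08, 9.19 and 9.46 (lowest, median and highest) in Cre/+ TAM and 8.53, 8.98 and 9.08 in wt TAM. The 3 Cre/+ OIL mice had 8.94, 9.06 and 9.15. Only Cre/+ TAM mouse 4 lay within the range of wt TAM, and wt TAM mouse 4 was the lowest. The difference was 0.32 (95% interval 0.10 to 0.53, limma unadjusted p = 0.00744, adjusted p = 0.600), a ratio of 1.24.

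Ctsc, or dipeptidyl peptidase 1, which activates serine proteases of leukocytes (chr7:88278085-88310888), had 9.68, 9.87 and 10.39 in Cre/+ TAM and 9.34, 9.63 and 9.72 in wt TAM. In Cre/+ OIL the 3 values were 9.70, 9.89 and 9.59. Cre/+ TAM mice 1 and 2 were the highest of all 15, at 10.39 and 10.09. The difference to wt TAM was 0.35 (0.10 to 0.60, limma unadjusted p = 0.00887). Ctsb, cathepsin B, an abundant endopeptidase (chr14:63122462-63145923), had 10.05, 10.20 and 10.80 in Cre/+ TAM and 9.55, 9.96 and 10.08 in wt TAM. The 3 Cre/+ OIL mice had 9.84, 10.21 and 10.01. Cre/+ TAM mouse 1, at 10.80, stood apart from the next of its group, at 10.31, and the group difference was 0.37 (0.09 to 0.64, limma unadjusted p = 0.0129). The other 6 had unadjusted p-values of 0.05 or more. Among them Ctsf was nearest to the threshold (0.27, -0.0011 to 0.54). Ctss, cathepsin S, a protease of antigen-presenting cells, and Lgmn had differences of 0.09 and 0.10 and their lowest Cre/+ TAM signals in mouse 1. Ctsk, cathepsin K, known from bone-resorbing osteoclasts, varied most among the cathepsins within Cre/+ TAM, from 3.77 to 4.57, and ranged from 3.89 to 4.61 in wt TAM and from 3.97 to 4.46 in Cre/+ OIL. These ranges lay on top of each other, and the difference to wt TAM was 0.11 (-0.20 to 0.43).

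The other proteases were Ctsa, a carboxypeptidase that also protects other enzymes, Ctsd, cathepsin D, and Tpp1, a tripeptidyl peptidase. Their differences were 0.12, 0.11 and 0.15, with 0 of 3 at an unadjusted p under 0.05. Ctsd was nearly level over mice, at 11.55 to 11.68 in Cre/+ TAM, at 11.53 to 11.64 in 5 wt TAM mice and at 11.05 in wt TAM mouse 2.

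Glycosidases remove sugars from glycoproteins, glycolipids and glycogen. All 7 were higher in Cre/+ TAM than in wt TAM, with a median of 0.23 (0.05 for Neu1 to 0.40 for Hexa), and 3 had an unadjusted p under 0.05. Gusb, β-glucuronidase (chr5:129989011-130003049), had 8.39, 8.56 and 8.65 in Cre/+ TAM and 7.85, 8.30 and 8.43 in wt TAM. Cre/+ OIL mice had 8.25, 8.41 and 8.41, inside the wt TAM range. The difference was 0.31 (0.09 to 0.53, limma unadjusted p = 0.00841).

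Hexa, the α subunit of β-hexosaminidase, which degrades GM2 ganglioside (chr9:59539667-59565107), had 9.60, 9.72 and 9.96 in Cre/+ TAM and 8.86, 9.53 and 9.69 in wt TAM. In Cre/+ OIL the values were 9.10, 9.82 and 9.82. Low values were thus found in 1 of 3 Cre/+ OIL and 2 of 6 wt TAM mice (mice 2 and 4, 8.99 and 8.86), and in 0 of 6 Cre/+ TAM mice. The difference to wt TAM was 0.40 (0.06 to 0.73, limma unadjusted p = 0.0232). Gaa, acid α-glucosidase, which breaks down glycogen (chr11:119267887-119285698), had 6.64 and 6.51 in Cre/+ TAM mice 1 and 2 and 6.17 to 6.21 in the other 4. In wt TAM it ranged from 5.79 to 6.25, with a median of 6.08, and in Cre/+ OIL it was 6.32, 6.29 and 6.16. The difference was 0.27 (0.04 to 0.51, limma unadjusted p = 0.0247). Man2b1, lysosomal α-mannosidase, differed by 0.21 (-0.0016 to 0.42), and Glb1, β-galactosidase, by 0.12.

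Gla, α-galactosidase A on the X chromosome (chrX:134588149-134601125), had the largest spread of all members and followed the animal numbers rather than the groups. Its signal was 5.98 to 6.81 in the 5 highest-numbered mice of the lower range (2 Cre/+ TAM, 2 wt TAM and 1 Cre/+ OIL) and 4.98 to 5.60 in the other 10. The pattern was chosen after the values were seen. Gla was the only one of the 39 members in which these 5 mice lay apart from the other 10, which 228 of 32471 clusters did in either direction. Between Cre/+ TAM and wt TAM its difference was 0.23 (-0.49 to 0.95).

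**Figure D4:**
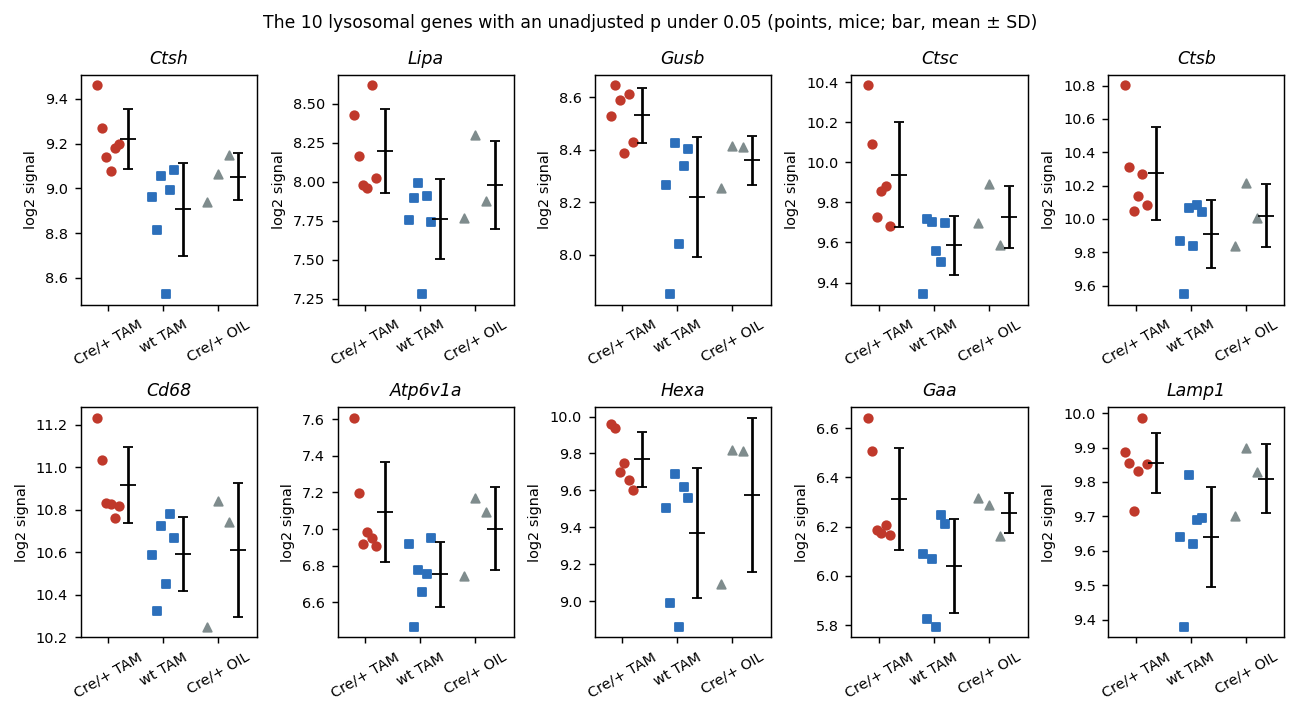
Log2 signals of the 10 lysosomal genes with an unadjusted p under 0.05 between Cre/+ TAM and wt TAM, ordered by that p. Points are mice (6 Cre/+ TAM, 6 wt TAM, 3 Cre/+ OIL) and the bars are means ± SD. The groups overlap in each panel, and the Cre/+ OIL mice lie between or across the other groups.

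For lipid breakdown and export, all 5 members had positive differences (median 0.15) and 1 had an unadjusted p under 0.05. Lipa, lysosomal acid lipase, which hydrolyses cholesteryl esters and triglycerides (chr19:34492316-34527474), had 7.96, 8.10 and 8.62 in Cre/+ TAM and 7.28, 7.82 and 7.99 in wt TAM. In Cre/+ OIL it was 7.77, 8.30 and 7.88. Cre/+ TAM mice 5 and 1 were the highest, at 8.62 and 8.43, and wt TAM mouse 4 the lowest. The difference of 0.43 was the largest of all members (0.13 to 0.74, limma unadjusted p = 0.00814, adjusted p = 0.613). Npc2, which hands cholesterol to NPC1, differed by 0.21 (-0.02 to 0.44), Asah1, acid ceramidase, by 0.15, Psap, the precursor of the saposins, by 0.06 and Npc1, the membrane cholesterol exporter, by 0.06.

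Of the 8 membrane proteins and channel, 8 had positive differences (median 0.12) and 2 an unadjusted p under 0.05. Cd68, a LAMP family glycoprotein of phagocytes (chr11:69664213-69666153), had 10.76, 10.83 and 11.23 in Cre/+ TAM and 10.32, 10.63 and 10.78 in wt TAM. Cre/+ OIL mice had 10.25, 10.84 and 10.74. Cre/+ TAM mice 1 and 2 were the highest, at 11.23 and 11.03, while the other 4 lay between 10.76 and 10.83. The difference was 0.33 (0.07 to 0.58, limma unadjusted p = 0.0144). Lamp1, a major protein of the lysosomal membrane (chr8:13159135-13175338), had 9.72, 9.85 and 9.99 in Cre/+ TAM and 9.38, 9.66 and 9.82 in wt TAM, and 9.70, 9.90 and 9.83 in Cre/+ OIL. Its difference was 0.21 (0.03 to 0.40, limma unadjusted p = 0.0252). Its relative Lamp2 differed by 0.08 (-0.09 to 0.26), and the calcium channel gene Mcoln1 by 0.08. Cd63, a tetraspanin of late endosomes, was at 9.69 in Cre/+ TAM mouse 1 and at 9.11 to 9.22 in the other 5, and its difference of 0.14 was 0.05 without that mouse.

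Of the proton pump subunits, Atp6v1a, the catalytic subunit (chr16:44085402-44139705), had 6.91, 6.97 and 7.61 in Cre/+ TAM and 6.47, 6.76 and 6.95 in wt TAM. The Cre/+ OIL values were 6.75, 7.17 and 7.09. Mice 1 and 2 were again the highest of Cre/+ TAM, at 7.61 and 7.20, and the difference was 0.34 (0.07 to 0.61, limma unadjusted p = 0.0173). Atp6v0d2, a subunit known from osteoclasts and some macrophages, had signals of 2.04 to 2.78 in 14 mice and 3.72 in Cre/+ TAM mouse 1. Atp6v1b2 had a difference of 0.16 in the cluster used, which the deposited annotation puts on the opposite strand from the cluster of the whole gene and marks with cross-hybridisation class 3. The whole-gene cluster, of class 1, differed by 0.06.

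Progranulin, encoded by Grn, a regulator of lysosomal function, had 10.97 to 11.31 in Cre/+ TAM and 11.02 to 11.12 in 4 wt TAM mice, with 10.97 in mouse 1 and 10.30 in mouse 2. Its difference was 0.24 (-0.03 to 0.51). The transcription factors that bind the CLEAR element had small differences, and those of Tfeb and Mitf were the smallest of all members. Tfeb was at 4.97 to 5.25 in Cre/+ TAM, 4.68 to 5.36 in wt TAM and 4.99 to 5.21 in Cre/+ OIL, and differed by 0.01 (-0.23 to 0.25). Tfe3 was at 6.83 to 7.11, 6.80 to 7.17 and 6.88 to 7.26 in the same groups, and differed by 0.07 (-0.13 to 0.26). Mitf was at 6.59 to 6.95, 6.51 to 6.88 and 6.70 to 6.97, and differed by 0.01 (-0.19 to 0.21). The signs for Tfeb and Mitf turned under several alternatives, Mitf under quantile normalization among them, so neither has a direction.

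The median difference of the members was larger in the lower than in the upper range of animal numbers, but no member was called for it. The lower-minus-upper difference had a median of 0.10 over the members, with 26 of 39 positive. Without wt TAM mouse 2, of the lower range, that median was -0.0011, with 19 of 39 positive. Within the lower range, where Cre/+ TAM mice 1 and 2 were set against 3 wt TAM mice, the median over the members was 0.23, with 35 of 39 positive and 6 at an unadjusted p under 0.05. Within the upper range, 4 against 3 mice, it was 0.14, with 35 of 39 positive and 1 (2.56%) at an unadjusted p under 0.05. Over all 32471 clusters, 1160 were higher at that threshold in the lower range and 666 in the upper range. Without Cre/+ TAM mice 1 and 2, 4 members had an unadjusted p under 0.05, and 725 of 32471 clusters were higher at that threshold. The 4 were Lipa, Gusb and Ctsh of the 10 named before and Ctsf, which was not among them. Their differences were 0.38, 0.28, 0.24 and 0.33. Lipa had 0.42 in the lower and 0.50 in the upper range, and Ctsh 0.42 and 0.28. Ctsb had 0.73 and 0.15, Gaa 0.58 and 0.10, Atp6v1a 0.68 and 0.15, and Ctsc 0.65 and 0.20.

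The test of the difference between ranges called 0 of 39 members (smallest adjusted p = 0.764 with limma). Over all 32471 clusters it called 32 with a higher and 3 with a lower difference in the lower range. At an unadjusted p under 0.05 it gave Ctsb, Gaa, Atp6v1a and Ctsc, higher in the lower range by 0.58, 0.48, 0.53 and 0.45. These are 10.3% of the members, and 1007 of the 32471 clusters were higher at that threshold. Markers of border-associated macrophages moved in the same mice. Of 13, 12 were higher in Cre/+ TAM than in wt TAM, with a median log2 difference of 0.62. Their mean was 6.89 in Cre/+ TAM mouse 1, 5.41 in mouse 2, 4.71 to 4.83 in mice 3 to 6, 4.23 to 4.40 in wt TAM and 4.17 to 4.34 in Cre/+ OIL. Among these markers, Lyve1 was at 4.75 ± 0.20 (SD, n = 6) in Cre/+ TAM and 4.76 ± 0.23 (n = 6) in wt TAM. In the same groups Mrc1 was at 7.28 ± 1.70 and 5.36 ± 0.24, and Ms4a7 at 6.86 ± 1.83 and 3.59 ± 0.45. The study reports Mrc1 and Ms4a7 as increased in Tgfbr2-deficient microglia. The part of these markers in the lysosomal values was not tested. In a bulk sample, a change in the share of a cell type and a change of RNA per cell cannot be told apart.

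The second control, Cre/+ OIL, carries the Cre allele as the recombined mice do, but received no tamoxifen. Against it, the mean was higher in Cre/+ TAM for 29 of 39 members, by a median of 0.07, against -0.0045 over all genes. Among clusters with a mean signal above 8, 56.0% had a positive difference, with a median of 0.02 over genes. Of the 24 members above that signal 18 were positive, and their median was 0.08. With limma 0 of 39 were called, against 0% of all clusters, and 0 of 39 were higher at an unadjusted p under 0.05, against 2.93% of all clusters. The methods' unpaired test gave 1 of 39 unadjusted and 0 after adjustment, and 869 of 32471 clusters higher at the unadjusted threshold. The smallest p was that of Cd68, with a difference of 0.31 (-0.0038 to 0.62, limma unadjusted p = 0.0526). Ctsb and Ctsc had 0.25 and 0.21, and Lipa 0.21 (-0.16 to 0.59), while Lamp1 had 0.05 and Gaa 0.06. The glycosidases had a median of 0.14, and the cathepsins with legumain 0.11. After quantile normalization 24 of 39 were higher. Cre/+ OIL mouse 1 held the lowest of the 15 values for 5 members. Without it 18 of 39 were positive, the median was -0.01 and 0 had an unadjusted p under 0.05. Without mouse 2, 32 were positive, with a median of 0.10 and 3 at an unadjusted p under 0.05, and without mouse 3, 30, with a median of 0.13 and 1 under it. Within the lower range of animal numbers, which holds all Cre/+ OIL mice, 31 were positive, with a median of 0.08 and 3 under it. With the range as a block, 28 were positive, with a median of 0.04 and 3 under it. No member was called in these settings. Over all 32471 clusters, those higher at an unadjusted p under 0.05 numbered 686 without Cre/+ OIL mouse 1, 781 without mouse 2 and 1457 without mouse 3. They numbered 1159 in the lower range alone and 1105 with the range as a block. The intervals of single genes still allow differences of 0.28 to either side of the estimate (median over the members).

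**Figure D5:**
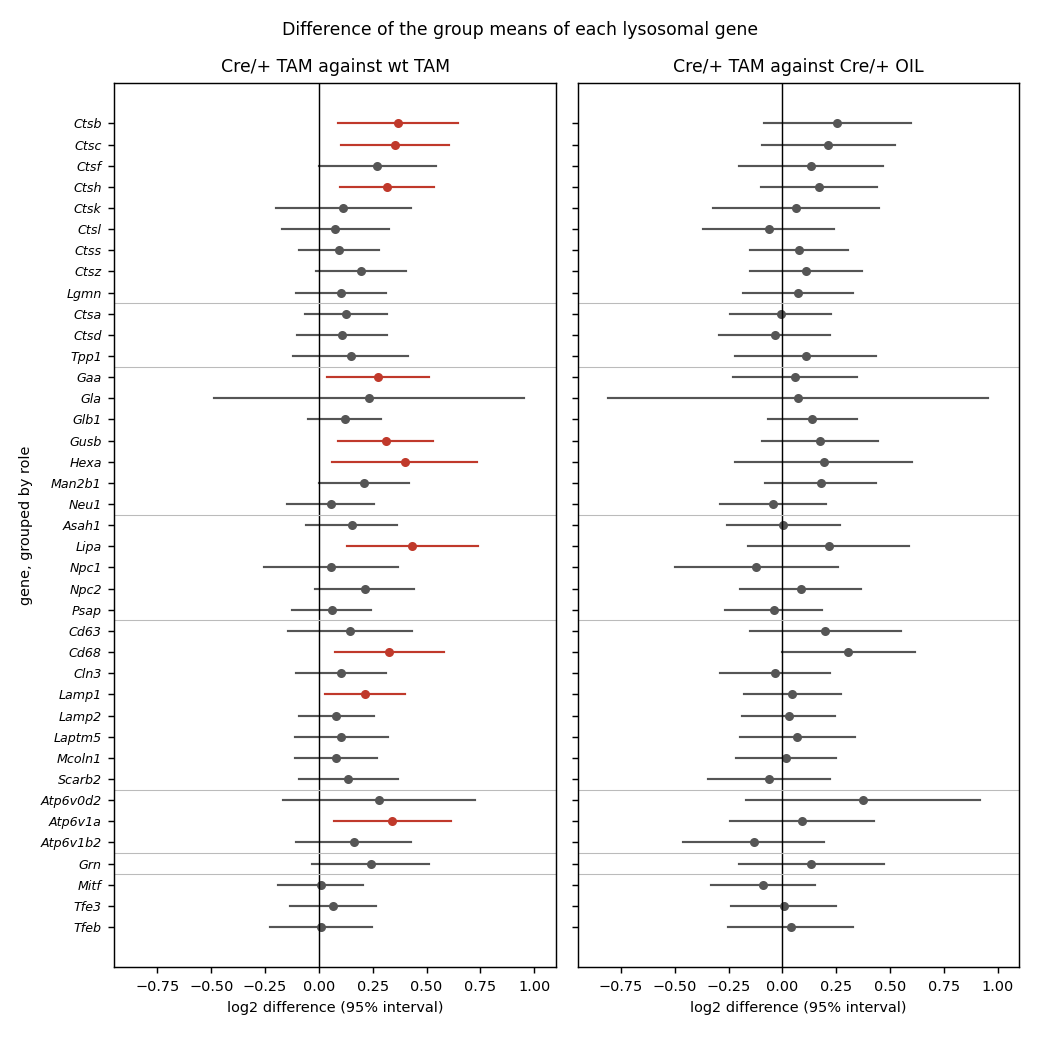
Log2 difference of group means (points) with 95% intervals (lines) for the 39 lysosomal genes, ordered by role, for Cre/+ TAM against wt TAM on the left and against Cre/+ OIL on the right. Red marks an unadjusted p under 0.05. On the left 39 of 39 points lie right of 0 and 10 are red, and on the right 29 lie right of 0 and none is red.

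The control groups differed from each other in Cre and in tamoxifen. The mean in wt TAM was lower than in Cre/+ OIL for 35 of 39 members, with a median difference of -0.11, against 0.01 over all genes. Among clusters with a mean signal above 8, 42.2% had a positive difference, with a median of -0.03 over genes. Of the 24 members above that signal 1 was positive, and their median was -0.12. With limma 0 of 39 were called, against 0% of all clusters, and 0 of 39 were lower at an unadjusted p under 0.05, against 2.24% of all clusters. The methods' unpaired test also gave 0 of 39. Atp6v1b2 had the smallest p, with -0.30 (-0.62 to 0.03, limma unadjusted p = 0.0733) in the opposite-strand cluster of class 3. Its whole-gene cluster had means of 7.42 in wt TAM and 7.55 in Cre/+ OIL. Gaa and Lamp1 had -0.22 and -0.17. For 25 members the order of the means was Cre/+ TAM, Cre/+ OIL, wt TAM. For 10 it was Cre/+ OIL, Cre/+ TAM, wt TAM, and for 4, Cre/+ TAM, wt TAM, Cre/+ OIL. These comparisons share their mice, so the orders do not count separately.

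Other genes of the lysosome, on lists that hold none of the 39, had differences between Cre/+ TAM and wt TAM of the same sign for the most part. Of 76 genes 60 were higher in Cre/+ TAM, 12 (15.8%) at an unadjusted p under 0.05 and 0 at an adjusted one, and the median was 0.12. Over all clusters 44.8% had a positive difference and 2.92% were higher at an unadjusted p under 0.05. Of 29 hydrolases and cofactors, 24 were higher and 6 had an unadjusted p under 0.05. Gm2a, the activator that presents GM2 ganglioside to hexosaminidase, had 0.43 (limma unadjusted p = 0.00335, adjusted p = 0.484). Arsa, arylsulfatase A, had 0.27, and Naglu, an enzyme of heparan sulfate breakdown, 0.33. Of 16 other proton pump subunits, 13 were higher and 4 had an unadjusted p under 0.05, with 0.78 for Atp6v0c, 0.35 for Atp6ap1 and 0.36 for Atp6v0e. Of 12 genes of sorting and activation 9 were higher, and Gnptab, which makes the mannose 6-phosphate tag, had 0.46 (limma unadjusted p = 0.00505). Of 19 membrane proteins and transporters 14 were higher, and Slc11a1, the metal transporter NRAMP1 of phagocytes, had 0.28. Against Cre/+ OIL, 45 of the 76 were higher and 0 reached an unadjusted p under 0.05 in that direction, against 2.93% of all clusters. Between the controls, 57 of the 76 were lower in wt TAM than in Cre/+ OIL. Of these, 5 had an unadjusted p under 0.05 with limma, against 2.24% of all clusters lower.

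Among 6 inhibitors of cysteine cathepsins, 4 were higher in Cre/+ TAM than in wt TAM. With limma 3 had an unadjusted p under 0.05, against 2.92% of all clusters higher, and 1 was called, against 0.0246% of all clusters. Ctla2b, which resembles the propeptide of a cathepsin, was at 7.75 to 8.11 in Cre/+ TAM, 6.39 to 7.12 in wt TAM and 6.80 to 7.37 in Cre/+ OIL. Its Cre/+ TAM values lay above all others, while 0.317% of all clusters had all Cre/+ TAM above all wt TAM mice. In Cre/+ TAM Ctla2b was 1.23 higher than in wt TAM (SE 0.12, limma adjusted p = 0.00035) and 0.91 higher than in Cre/+ OIL (limma adjusted p = 0.112). Ctla2a, a near-identical relative whose signal may not be cleanly told apart from it, had 0.73, and Cst7, cystatin F, had 0.46 against wt TAM, neither called. The other 3 inhibitors (Cst3, Cstb and Cst6) had unadjusted p-values of 0.05 or more.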

How the data were processed

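The authors amplified and labelled RNA of sorted microglia and hybridised it to 15 Affymetrix Mouse Gene 2.0 ST arrays, 1 per mouse. The deposited values are log2 signals that the authors normalized with RMA. Its software and version and the genome build of the coordinates are not given in the sources used here, but all 39 member clusters overlap the GRCm38.p6 gene of the same symbol. The deposited comparison columns and tables hold the authors' fold changes, analysis of variance p-values and false discovery rates and were not used. Of 34390 transcript clusters, 32471 had a symbol and were tested, including 128 with several symbols, which are named nowhere. Precision is limited by the number of arrays, to which no depth applies.

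A model with 1 mean per group was fitted across the 15 arrays with limma 3.58.1 (R 4.3.3; lmFit, then eBayes), and 3 two-sided contrasts were read from it. A cluster was called where its p, adjusted over all tested clusters by Benjamini-Hochberg, was under 0.05. Intervals are 95% intervals of this fit. The difference between the ranges of animal numbers was an interaction contrast. The methods name unpaired two-sided tests for other assays, and such a test was run as an alternative. In simulated data with 200 changed clusters of 32471, log2 changes of 0.5 and 1 were recovered for 46.3% and 86.6% of clusters against wt TAM (9 of 164 calls were false) and for 28.4% and 74.6% against Cre/+ OIL (7 of 142 were false). The simulated noise was independent between clusters, and no change under 0.5 was simulated. The largest differences of members were 0.43 against wt TAM and 0.37 against Cre/+ OIL, so these rates do not cover changes of their size.

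The members, the further lists and the markers were chosen with earlier results of these data known. The spread of signals over mice, with some single mice named, is given for the 10 members with an unadjusted p under 0.05 against wt TAM. The rule asked for 8, and Gaa and Lamp1 were added after their values were seen. It is also given for the transcription factors and for the 3 members with the largest SD in Cre/+ TAM (Gla, Atp6v0d2 and Ctsk). Further genes are named where called or among the 3 smallest p of their list, and a gene of the further lists, counted there, is not reported here by itself. The choice of Ctss, Ctsd, Cd63, Grn and other genes described singly was made with their values known. Alternatives were other scalings, filters, models, array sets and mice left out. The titles of 3 arrays (Cre/+ OIL mice 1 and 2 and wt TAM mouse 3) carry 'neg', which no source used here explains, and these were kept. Without them the median difference of the members was 0.17 for Cre/+ TAM against wt TAM. Against Cre/+ OIL, with mouse 3 alone left in that group, it was 0.03. Promoters are from RefSeq (GRCm38.p6).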

Additional observations from a re-analysis of the deposited data

Results flagged for a closer look

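In each group of 6 mice, a value was looked at again where its gap to the nearest mouse, as a share of the group's range, exceeded Dixon's 95% limit. This was so for 15 of 80 groups tested. Chance flags about 1 in 20 where groups are independent, which genes measured on the same arrays are not. The Cre/+ OIL group, with 3 mice, is too small for this.

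Of the 15, 5 were in Cre/+ TAM mouse 1, whose border-associated macrophage markers averaged 6.89. It was the highest of its group for Ctsb (10.80, next 10.31), Cd63 (9.69, next 9.22) and Atp6v0d2 (3.72, next 2.59). It was the lowest for Ctss (11.18, next 11.32) and Lgmn (10.78, next 11.06). The part of these markers was not tested.

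Another 3 were low values of wt TAM mouse 2, whose neutrophil markers averaged 6.61, for Ctsd (11.05, next 11.53), Npc2 (8.44, next 8.87) and Grn (10.30, next 10.97). Their part was not tested either. In wt TAM mouse 4, Lgmn (10.66, next 10.99) and Lipa (7.28, next 7.74) were low.

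The other 5 were spread over mice. Man2b1 was high in wt TAM mouse 3 (9.77, next 9.50) and Glb1 in Cre/+ TAM mouse 2 (6.52, next 6.32). In Cre/+ TAM mouse 5, Mcoln1 was low (7.08, next 7.30) and Mitf high (6.95, next 6.70). Tfe3 was low in Cre/+ TAM mouse 6 (6.83, next 7.02).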

How the results depend on the processing

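The number of called members was 0 in each of the 32 alternatives for Cre/+ TAM against wt TAM, the 31 for each other comparison and the 16 for the difference between ranges. Over the alternatives the median difference of the members was 0.10 to 0.23 against wt TAM (0.11 to 0.19 with 1 mouse left out), -0.01 to 0.13 for Cre/+ TAM against Cre/+ OIL, and -0.19 to -0.05 for wt TAM against Cre/+ OIL. The negative value against Cre/+ OIL arose without Cre/+ OIL mouse 1. Of the 39 members, those higher at an unadjusted p under 0.05 against wt TAM, 10 in the main analysis, numbered 4 without the Cre/+ TAM mice of the lower range of animal numbers, 6 in the lower range alone, 1 in the upper range alone, and 7 to 13 with 1 mouse left out. The first 3 settings also hold fewer mice, and in them 725, 1160 and 666 of 32471 clusters were higher at that threshold. The 10 genes of the main analysis kept a positive sign in each alternative. Called clusters of the whole array, 8 in the main analysis, numbered 0 to 87, with 51 when the range of animal numbers was a block, 87 in the lower range alone and 0 among clusters with a mean signal above 8, an alternative chosen after seeing the data. With 1 mouse left out they numbered 2 (without wt TAM mouse 2) to 15 (without Cre/+ TAM mouse 1). No paired analysis was possible because the labels give each mouse its own animal number and no number that is shared between groups. Signals near the low end of the scale, as for Atp6v0d2, carry little information on differences.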
